A study of Homo sapiens with 2 samples.

Results

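JUNB peaks were examined around 8 human genes that encode DNA topoisomerases or the enzymes that remove topoisomerases trapped on DNA: TOP1, TOP2A, TOP2B, TOP3A, TOP3B, TOP1MT, TDP1 and TDP2. The genes were chosen by name, since the proteins made from TOP2A and TOP2B are the targets of etoposide, and every peak whose summit lay within 50 kb of the RefSeq GRCh38 span of one of them was taken. They are 8 of 19974 protein-coding genes on chromosomes 1 to 22 and X, and their windows held 22 of the 32550 untreated peaks and 13 of the 25739 etoposide peaks. JUNB, which pairs with FOS proteins to form AP-1, was mapped by CUT&RUN with a JUNB antibody in IMR-90, a line of human lung fibroblasts with no genetic change named in its labels. CUT&RUN uses an antibody to bring a nuclease to a chromatin protein, and the released fragments are sequenced. One library came from cells with no treatment and 1 from cells treated with etoposide, and neither the dose nor the time of treatment is given in the sources used here. With 1 library per condition there was no replicate check and no test of the treatment. No IgG or input library was used here.

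Topoisomerases relieve the twisting and tangling of DNA by cutting it, passing strands and resealing the cut, and during each cycle the enzyme is joined to DNA through a tyrosine. Type I enzymes cut a single strand (TOP1 in the nucleus, TOP1MT in mitochondria, TOP3A and TOP3B), and type II enzymes cut both strands (TOP2A in dividing cells, TOP2B in dividing and resting cells). Etoposide holds the type II enzymes in the cut state, so that protein-linked double-strand breaks persist. TDP2 hydrolyses the bond between a type II enzyme and a 5′ DNA end, and TDP1 the bond between TOP1 and a 3′ end.

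Peak lists hold only places that passed the caller's threshold, so a place without a peak is one that was not listed. In the text below, a shared peak overlaps one from the other library by 1 bp or more, and a peak alone has none. The strength of a peak is given as the number of fragments stacked at its summit, as solved from the authors' deposited fold and -log10 p, or as its rank by the authors' -log10 q within its own list. Over the whole lists the median stack was 15 fragments (quartiles 11 and 21) for untreated and 13 (10 and 17) for etoposide peaks. At the 16610 untreated peaks with an etoposide counterpart, the ratio of the etoposide to the untreated stack had a median of 0.778, with 95% of ratios between 0.407 and 1.63, and this sets the scale for the ratios below. Intervals on shares are Wilson intervals, those on ratios come from exact binomial intervals, and both cover counting error only, with PCR copies not told apart.

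The stretches upstream of 3 gene starts are shown first. That of TDP2 was overlapped by a peak of each library, and those of TOP2A and TOP2B, the etoposide targets, by none. At TDP2 the untreated peak was weak, stronger than 3.45% of its list. The etoposide summit lay beyond the printed stretch. All are on the minus strand of GRCh38.p14, from RefSeq, printed 5′ to 3′ and ending at the base before the gene start. The TDP2 sequence is chr6:24666900-24667076 and stops where the neighbouring gene ACOT13 begins, 177 bases away. Its capitals mark the 21 bases centred on the untreated summit. The TOP2A sequence is chr17:40417897-40418146 and the TOP2B sequence, from the outermost of 2 annotated starts, is chr3:25664908-25665157. Capitals there mark ATTGG, the CCAAT box read on the other strand.
TDP2: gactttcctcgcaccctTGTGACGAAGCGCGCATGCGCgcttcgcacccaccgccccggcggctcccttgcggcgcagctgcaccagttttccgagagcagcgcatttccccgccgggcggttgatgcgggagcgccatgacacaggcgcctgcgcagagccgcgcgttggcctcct
TOP2A: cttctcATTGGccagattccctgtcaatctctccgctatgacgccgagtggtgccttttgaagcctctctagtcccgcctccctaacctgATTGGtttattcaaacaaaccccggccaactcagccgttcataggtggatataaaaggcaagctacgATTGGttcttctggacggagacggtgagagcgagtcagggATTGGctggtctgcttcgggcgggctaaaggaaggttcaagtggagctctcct
TOP2B: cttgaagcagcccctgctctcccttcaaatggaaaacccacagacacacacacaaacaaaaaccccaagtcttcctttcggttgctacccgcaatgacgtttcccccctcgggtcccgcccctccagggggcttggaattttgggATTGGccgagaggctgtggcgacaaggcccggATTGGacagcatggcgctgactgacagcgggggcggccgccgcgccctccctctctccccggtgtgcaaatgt

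RefSeq promoter windows, from 250 bases before to 50 after a start, matched 7 of the 8 genes, with 2 windows for TOP2B. The AP-1 site TGANTCA, searched on both strands, was in 0 of these 8 windows, and it was in 7.71% of all 35116 windows. The related site TGACGTCA was also in 0 of the 8, against 1.85% of all windows. ATTGG or CCAAT occurred 4 times in the TOP2A window, a number reached by 0.991% of all windows, and 2 times in the outer TOP2B window, reached by 10.8%. The other 6 windows held neither. No match says only that these letters are not in these windows.

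TOP2A had the fewest listed peaks of the 8 genes. Its window, around a gene of 29.4 kb at chromosome 17, 40388525 to 40417896, held 1 untreated peak and 0 etoposide peaks. That peak, at chr17:40452508-40452734, had its summit 34.7 kb upstream of TOP2A and inside IGFBP4, which encodes a secreted binding protein for insulin-like growth factors. It had 21 fragments on a local background of 1.68, was stronger than 76.9% of its list, and had the highest -log10 q of the peaks without a counterpart near the 8 genes. When each list is divided by -log10 q into 10 strength classes of equal size, 69.2% of untreated peaks in its class had a counterpart. The nearest etoposide summit to TOP2A lay 53.2 kb from its span, just outside the window, with 14 fragments. It was shared with an untreated peak of 11 fragments. No summit of either list was inside TOP2A.

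TOP2B, the other target, had more listed peaks, 4 untreated and 2 etoposide. It spans 67.0 kb at chromosome 3, 25597905 to 25664907. A shared peak lay inside the gene, 60.7 kb from the outermost start and so in its last part, at chr3:25604134-25604373 in the untreated list and chr3:25604143-25604371 in the etoposide list. Both libraries had 15 fragments there, with summits 18 bp apart. The stack ratio of 1 had an interval of 0.456 to 2.20, which includes the list-wide median.

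The other TOP2B peaks lay downstream of the gene and inside RARB, which encodes a retinoic acid receptor. The shared one, 15.6 kb from TOP2B in the untreated list, had 8 fragments in each library, and its summits were 152 bp apart. Untreated peaks alone were found 5.03 and 24.4 kb from TOP2B, with 11 and 9 fragments. Nothing further was listed until 156 kb from the gene in either library.

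TOP1, which relaxes supercoils ahead of transcription and is the target of camptothecins rather than etoposide, had the strongest peak near any of the 8 genes in both libraries. It lay 25.2 kb upstream of TOP1, with TOP1 as the nearest protein-coding gene, inside the long noncoding RNA genes LOC100128988 and LOC105372621. In the untreated list it was 1004 bp wide, at chr20:41003052-41004055, with 75 fragments over a local background of 4.69 (the list median was 1.27), and it ranked 87 of 32550. The etoposide list divided the same place into 2 peaks. The main one, at chr20:41003481-41004014, had 48 fragments on a background of 2.89 (list median 0.907), ranked 199 of 25739, and had its summit 7 bp from the untreated one. The smaller, at chr20:41003080-41003268, had 13 fragments and was stronger than 2.14% of its list. The ratio of the main stacks was 0.640, with an interval of 0.436 to 0.932 that includes the list-wide median.

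Inside TOP1, 29.7 kb from its start, a second shared peak at chr20:41058304-41058653 had 23 untreated and 14 etoposide fragments, a ratio of 0.609 (0.290 to 1.23). Untreated peaks alone lay inside the gene 43.8 kb from the start, with 10 fragments, and 6.97 kb beyond its end inside PLCG1-AS1, with 6 fragments, the smallest stack of the 22. The TOP1 start itself had no peak within 25 kb in either list.

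TOP3A and TOP3B had no summit inside their spans in either library. The TOP3A enzyme passes single strands through one another during recombination, and that of TOP3B also acts on RNA. TOP3A had 1 shared peak, 2.94 kb beyond the end of the gene and nearest to MIEF2, a gene of mitochondrial dynamics, at chr17:18268173-18268581 in the untreated list. It had 10 untreated and 8 etoposide fragments, with summits 12 bp apart.

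Near TOP3B all peaks lay downstream, inside PPM1F, which encodes a protein phosphatase. The shared peak 14.4 kb from TOP3B, at chr22:21942476-21942749 in the untreated list, had 37 untreated and 15 etoposide fragments. Its ratio of 0.405 (0.207 to 0.757) was the lowest of the 11 shared places, had an interval that leaves out the list-wide median, and lay at the lower edge of the central 95% of all shared places. It was singled out for being the lowest, so this is a description and not a test. The untreated peak was stronger than 96.5% of its list and the etoposide peak stronger than 62.4% of its own. About 5 kb away, the shared peak 9.37 kb from TOP3B had near-equal stacks of 18 and 17 fragments, a ratio of 0.944 (0.457 to 1.94). An untreated peak alone, 19.0 kb from TOP3B, had 16 fragments.

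TOP1MT, the nuclear gene for the mitochondrial type I enzyme, had 2 untreated peaks and 0 etoposide peaks. One was inside the gene at chr8:143313249-143313450, with 8 fragments. The other, 44.3 kb from the gene and nearest to the zinc finger gene ZFP41, had 12 fragments. The nearest etoposide summit lay 493 kb away, the longest such distance of the 8 genes.

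TDP1 had the most peaks, 5 untreated and 4 etoposide. It was 1 of 2 genes, of the 7 matched to a promoter window, with a summit within 1 kb of the start. A shared peak inside the gene, at chr14:89956386-89956599 in the untreated list, had its summit 500 bp after the start, with 20 untreated and 17 etoposide fragments. Their ratio was 0.85 (0.418 to 1.71). It did not reach the promoter window. The start used, 89955927, comes from that window, but the gene span begins at 89954968, more than 1 kb from the summit. A second peak inside TDP1, 9.90 kb from the start and with 10 fragments, was in the untreated list alone.

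The remaining TDP1 peaks lay upstream inside EFCAB11, the neighbouring gene. At 33.8 kb from the TDP1 start, 1 wide untreated peak of 640 bp with 36 fragments corresponded to 2 etoposide peaks of 21 and 23 fragments. The ratio to the higher of these was 0.639 (0.361 to 1.11). A further shared peak 39.2 kb from the start had 25 and 22 fragments, and an untreated peak alone at 42.9 kb had 21. These 3 untreated peaks stood on local backgrounds of 3.37 to 4.69 fragments, above the list median of 1.27.

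TDP2, the enzyme that acts on trapped type II topoisomerases, was the other gene with a summit this close to its start. The untreated peak at chr6:24666927-24667377 had its summit 150 bp before the TDP2 start and 28 bp before ACOT13, an acyl-CoA thioesterase gene that runs the other way. The etoposide counterpart at chr6:24667009-24667298 had its summit 275 bp before the TDP2 start, inside ACOT13. The stacks were 8 untreated and 10 etoposide fragments. The ratio of 1.25 (0.444 to 3.64) was the only one above 1 among the 11 shared places, and its interval includes the list-wide median. Within its list the untreated peak was stronger than 3.45% of peaks and the etoposide peak stronger than 41.5%. An untreated peak alone, 340 bp after the start and inside TDP2, also had 8 fragments. A peak between such close starts belongs to neither gene by position alone.

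**Figure D1:**
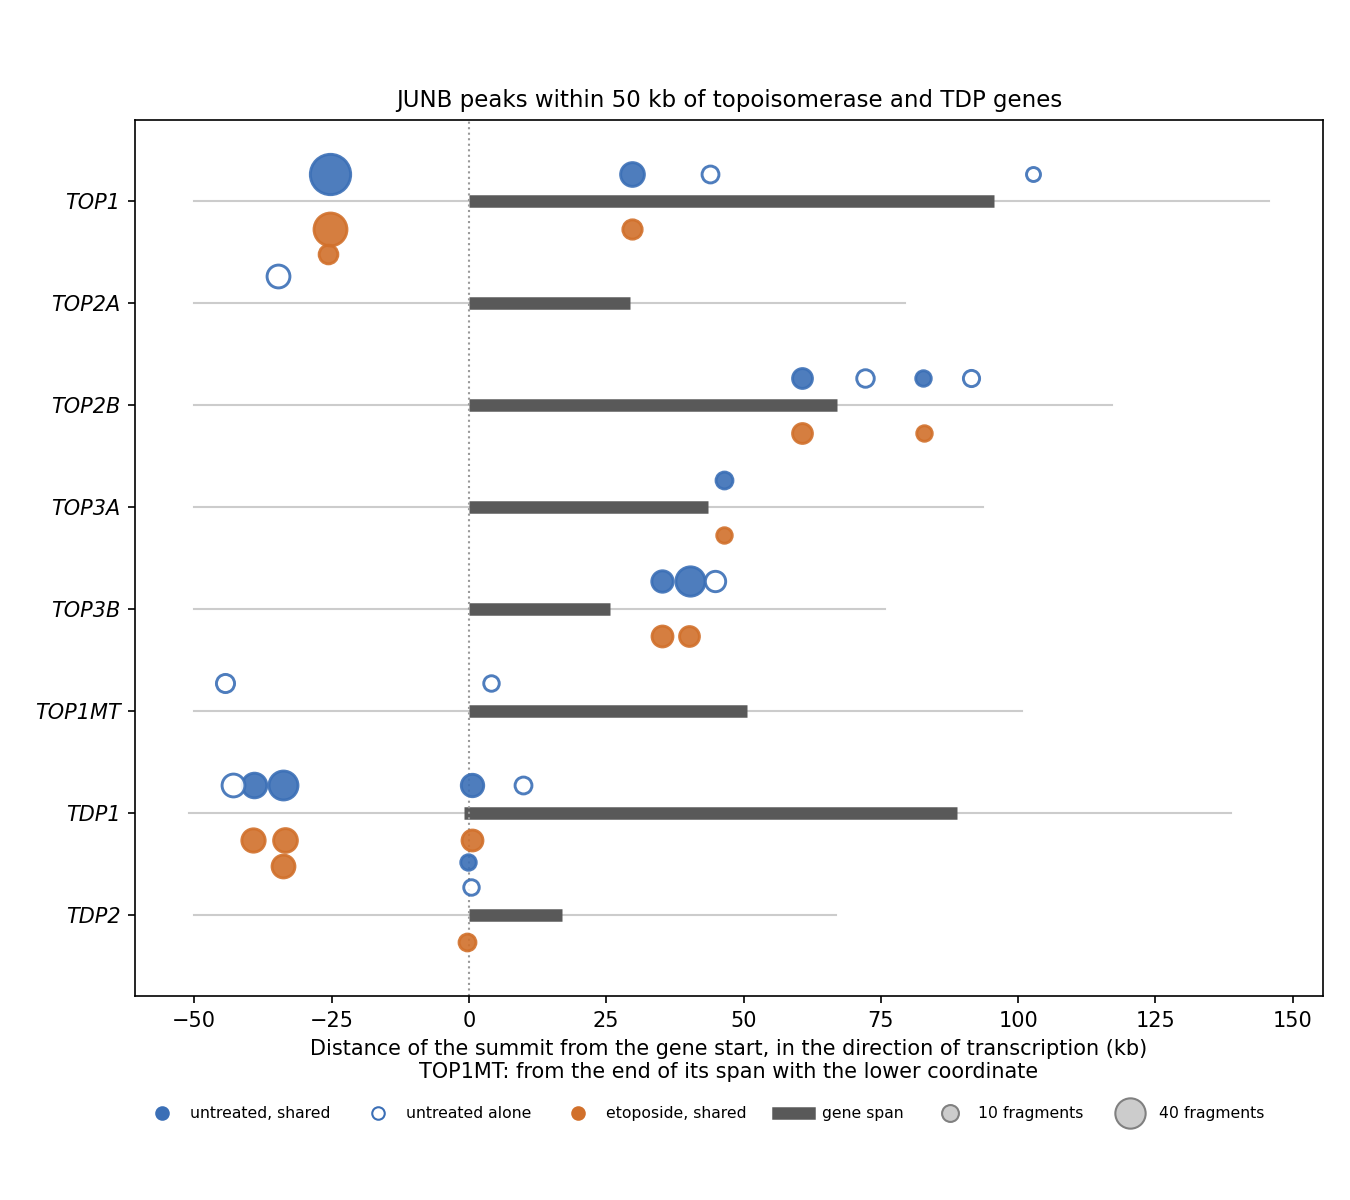
Positions of all 22 untreated (blue, above each line) and 13 etoposide (orange, below) peaks, as distance in kb of the summit from the gene start in the direction of transcription, with the gene span as a dark bar and the 50 kb window as a thin line. Marker area grows with the fragments at the summit, and open markers are peaks without a counterpart. Markers closer than 1.5 kb are stacked vertically. The 2 TOP1MT peaks are placed from the end of its span with the lower coordinate, since no start or strand was used for that gene. TDP1 and TDP2 are the 2 genes with a summit within 1 kb of the start used, and TOP2A and TOP1MT have no etoposide peak.

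Across the 8 genes, every one had an untreated peak within 50 kb, where 72.0% of all protein-coding genes did, and 6 had an etoposide peak, where 62.6% of all genes did. The 2 without an etoposide peak, TOP2A and TOP1MT, were in a class that held 13.5% of all genes. The reverse, an etoposide peak without an untreated one, held 4.05% of all genes and 0 of the 8. Peak numbers were lower in the etoposide library at 7 of 8 genes and equal at TOP3A. Over all genes they were lower at 45.6% (9106 genes) and higher at 12.9%. Only the 14388 genes with an untreated peak, which include all 8, could be lower. The whole etoposide list was also shorter, 25739 peaks beside 32550 untreated, and its lowest local background was 0.377 fragments beside 0.482. What library depth contributes to the lower numbers was not tested. At a start, 2 of the 7 genes matched to a promoter window had a summit within 1 kb in each library. Of all 15812 genes so matched, 17.5% did for untreated and 6.61% for etoposide peaks. A summit inside the gene was found at 5 genes for untreated peaks (33.4% of all genes) and at 3 for etoposide peaks (27.7%).

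Gene length enters these counts, because the windows of the 8 genes ran from 117 to 196 kb and the median window was 124 kb. Per 100 kb of window, untreated density was highest at TDP1 (2.63 peaks), TOP2B (2.40) and TOP3B (2.39) and lowest at TOP2A (0.773) and TOP3A (0.697). The median over the 8 genes was 1.88, beside 0.991 over all genes. For etoposide the order was led by TDP1 (2.11), TOP3B (1.59) and TOP1 (1.53), and the median was 1.03 beside 0.805. With peak counts of 0 to 5 a gene, neighbours in either order differ by 2 peaks or fewer, and without replicates they were not told apart.

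**Figure D2:**
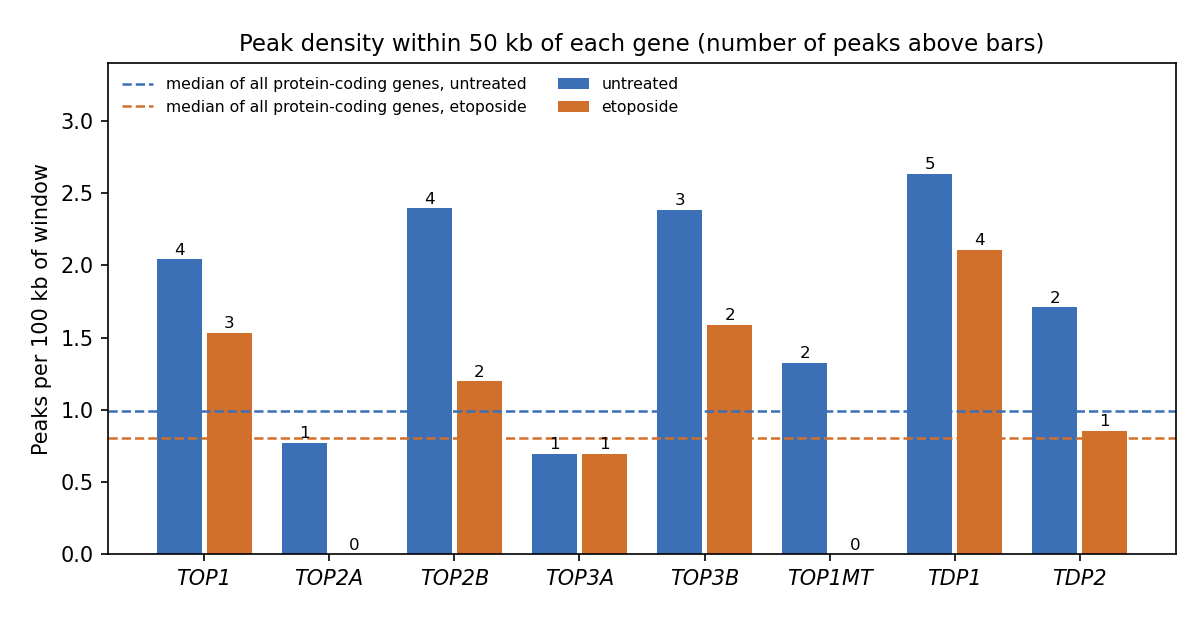
Peaks per 100 kb of window for each gene in the untreated (blue) and etoposide (orange) library, with peak numbers above the bars and dashed lines at the medians of all protein-coding genes. TOP2A and TOP3A are below both medians, and TDP1 has the highest bar in each library.

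Most of these peaks were closer to another gene. A protein-coding gene other than the 8 was nearest to, or contained, the summit of 14 of the 22 untreated and 8 of the 13 etoposide peaks. By side, 7 untreated summits were inside the 8 genes, 6 were upstream, 8 downstream and 1, near TOP1MT, was not assigned because no strand was used for that gene. In the etoposide list 3 were inside, 6 upstream and 4 downstream. Neither the nearest-gene counts nor the counts by side were worked out for the windows of all genes.

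**Figure D3:**
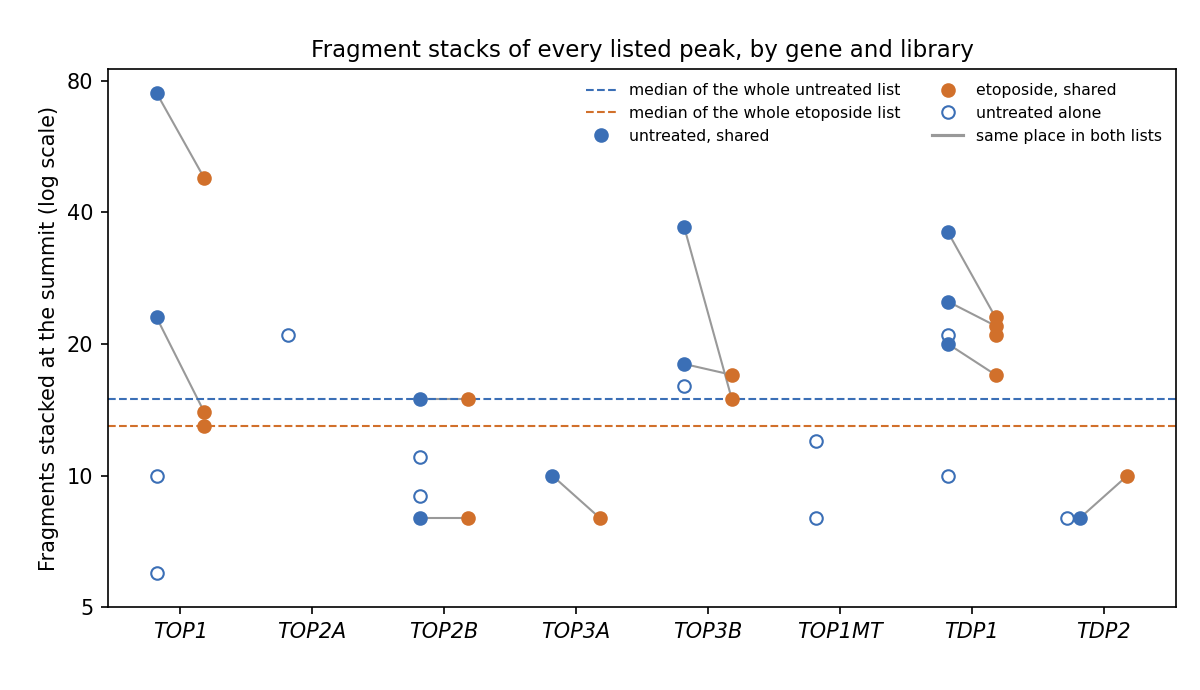
Fragments stacked at the summit of each peak (log scale), by gene, for untreated (blue) and etoposide (orange) peaks, with grey lines joining the 11 shared places to their highest counterpart, open circles for peaks without a counterpart and dashed lines at the list medians of 15 and 13. The TOP1 peak with 75 and 48 fragments stands above all others, and the steepest line is that of TOP3B, from 37 to 15.

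Of the 22 untreated peaks 11 were shared, 50% (30.7% to 69.3%), beside 51.0% of the whole list. All 13 etoposide peaks were shared, 100% (77.2% to 100%), beside 64.8% of the whole list. The 13 make up 11 places, since the main TOP1 peak and the EFCAB11 peak near TDP1 each had 2 etoposide counterparts. A shared place was found at 6 of the 8 genes, where 51.1% of all genes had one. No gene of the 8 had an etoposide peak without counterpart, where 36.2% of all genes did, and 7 had an untreated peak alone, where 59.7% of all genes did. TOP3A was the exception, with its single peak shared. Both shares depend on the criterion. When overlap had to cover at least 50% of both peaks, they were 31.8% (7 of 22) for untreated and 53.8% (7 of 13) for etoposide peaks. Among the 10000 strongest peaks of each list they were 80% (4 of 5) and 62.5% (5 of 8). Whole-list shares were not worked out at these 2 settings, so 51.0% and 64.8% are not their background.

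Sharing followed strength in the whole lists, so each peak was also set against its own strength class. Averaged over the peaks, the list-wide shared share of their classes was 46.6% for the 22 untreated peaks and 71.0% for the 13 etoposide peaks. The 11 shared untreated peaks had a median of 20 fragments (8 to 75) and the 11 alone a median of 10 (6 to 21). In the whole untreated list these medians were 19 and 12. The 3 peaks in the strongest class, near TOP1, TOP3B and TDP1, were all shared, as were 95.7% of that whole class. Of the 11 peaks alone, 10 lay in the weaker 5 classes, the exception being the IGFBP4 peak near TOP2A. Peaks alone were more frequent in weaker classes of the whole untreated list too, where the shared share climbed from 20.95% to 95.7%. In the class of the IGFBP4 peak it was 69.2%, so other peaks of that class were also alone. The whole-list share of peaks alone in the weaker 5 classes was not worked out, so 10 of 11 has no background.

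**Figure D4:**
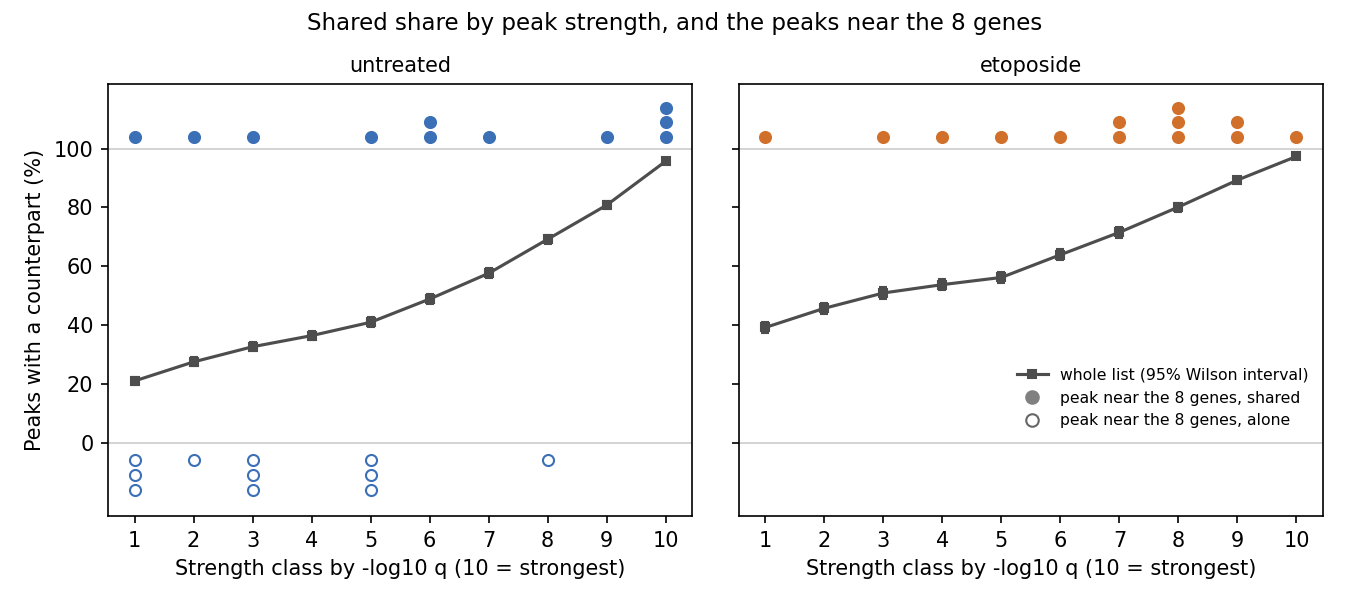
Percent of peaks with a counterpart in each of 10 strength classes by -log10 q of the untreated (left) and etoposide (right) list, with 95% Wilson intervals (squares), and the peaks near the 8 genes as circles, filled and above 100% if shared, open and below 0% if alone. The whole-list share climbs from 20.95% to 95.7% (untreated) and from 39.2% to 97.4% (etoposide), and the etoposide panel has no open circle.

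For the 11 untreated peaks alone, stacks scaled to the smaller etoposide stacks were set against the summit height needed in that list. Stacks were multiplied by the list-wide ratio of 0.778 and local backgrounds by 0.782, the ratio of the lowest backgrounds, and compared with the fewest fragments that reach the lowest -log10 p of the etoposide list, 4.39. The scaled stack was at or above that number for 10 of the 11 peaks. The same comparison was not made for the other untreated peaks without a counterpart, so this count has no background. The margin was widest for the IGFBP4 peak near TOP2A (16.3 scaled fragments where 8 were needed) and was under 1 fragment for the peak inside TOP1 (7.78 against 7) and the one inside TDP2 (6.22 against 6). The TOP1 peak in PLCG1-AS1 was below (4.67 against 5). This takes each listed stack at face value and uses a ratio from shared places only, so it runs high for weak peaks. Counting error was not carried into the comparison. Why these peaks had no counterpart was not tested.

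The other genes of the pathway were a list of 28: enzymes that strip or process trapped topoisomerases (SPRTN, ZNF451, MRE11 and others), strand-break repair factors, and partners of TOP3A and TOP3B (BLM, RMI1, RMI2, TDRD3). Of these, 27 had an untreated and 24 an etoposide peak within 50 kb, 96.4% and 85.7%, beside 72.0% and 62.6% of all genes. The exception with neither was PARP1. Per 100 kb of window, the median density of the 28 was 1.55 untreated and 0.974 etoposide peaks, beside 0.991 and 0.805 over all genes. An untreated but no etoposide peak was found at 3, beside 13.5% of all genes: LIG3, a DNA ligase of single-strand break repair, with 2 untreated peaks, RMI1, a partner of BLM and TOP3A, with 1, and ZNF451, a SUMO ligase that works with TDP2 on trapped TOP2, with 2. None had the reverse. An etoposide peak without counterpart, found at 0 of the 8 genes, was near 13 of the 28 (46.4%), beside 36.2% of all genes, and the difference between the lists was not tested. Numbers were lower in the etoposide library at 16 genes, equal at 10 and higher at 2. Of all genes, those without any peak included, 45.6% were lower and 12.9% higher.

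Gene starts were looked at in the same list. Of the 23 genes matched to a promoter window, 10 had an untreated summit within 1 kb (43.5%, beside 17.5% of all genes so matched). For etoposide 5 did (21.7%, beside 6.61%). The etoposide starts were those of APTX, ERCC1, RBBP8, TDRD3 and TOPORS, and the first 4 also had an untreated summit. RBBP8 encodes CtIP, which works with the MRE11 nuclease, and TDRD3 is the partner of TOP3B. Those with an untreated summit only were EME1, ERCC4, RMI1, SPRTN, XRCC6 and ZNF451.

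By the numbers of shared, untreated-alone and etoposide-alone peaks, the pathway gene most like TOP2A was RMI1, with the same 0, 1 and 0. LIG3 (0, 2 and 0) and PARP1 (0, 0 and 0) were next, at a summed difference of 1, where 3 genes tied. For TOP2B, with 2, 2 and 0, the nearest by alphabetical order among 6 tied genes were EME1 (1, 2 and 0), ERCC4 (1, 2 and 0) and MUS81 (2, 3 and 0). These are 3 small counts over 2 libraries, and many genes have such patterns.

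As a check on the labelled cell type, 10 of 10 fibroblast marker genes had a peak within 50 kb in each library, beside 9 (untreated) and 6 (etoposide) of 13 markers of epithelial, endothelial and blood cells (69.2% and 46.2%). Over all protein-coding genes these shares were 72.0% and 62.6%. A peak near a gene is binding and not expression.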

How the data were processed

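The 2 narrowPeak lists, 1 per library, were analysed. The submitters' processing notes name Bowtie2, MACS2, hg38 and mm10 without versions or roles, and contig names here are those of GRCh38. Per the labels, groups follow the treatment of each sample. The deposited fold is the ratio of summit signal to local background, and the deposited -log10 p and -log10 q are those of the summit. The deposited score follows -log10 q and was not used. All were made by the authors per library.

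Peaks on chromosomes 1 to 22 and X were kept. Summits were set against RefSeq GRCh38.p14 gene spans. Stacks (k) and backgrounds (b) were solved from fold = (k + 1)/(b + 1) and the Poisson tail above k, and whole numbers matched 100% of peaks within 0.001 in -log10 p. The solver was also checked on simulated peaks. Exon structure was not used, and no TOP1MT promoter was used.

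Members and gene lists were chosen with earlier results of these data known. Named were all 8 genes with every peak, pathway genes with peaks in 1 library, and nearest neighbours; pathway genes with peaks at starts, and TOP3B's ratio, were singled out after values were seen. Python 3.11.15, pandas 2.3.3 and scipy 1.17.1 were used. Alternatives covered the window, threshold, list size and overlap criterion.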

Additional observations from a re-analysis of the deposited data

How the results depend on the processing

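Each alternative changed 1 choice. A 10 kb window left 12 untreated and 6 etoposide peaks, and a 100 kb window gave 43 and 25. Among the 10000 strongest peaks of each list there were 5 untreated peaks at 4 genes and 8 etoposide peaks, with shared shares of 80% and 62.5%. Overlap of at least 50% of both peaks gave shared shares of 31.8% (untreated) and 53.8% (etoposide). The etoposide share was 100% at 10 kb and with any base counted, 96.0% (24 of 25) at 100 kb, 91.7% (11 of 12) at -log10 q of at least 5, and 84.6% (11 of 13) with summits within 200 bp. Whole-list shares were not worked out for the changed threshold, list size or overlap criterion. No paired analysis was possible because each condition had 1 library, and no library could be left out.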
